A study of Mus musculus with 6 samples.

Results

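The genes described are 32 genes of mitosis, from the proliferation markers Mki67 and Top2a to the spindle checkpoint and the anaphase-promoting complex. They were chosen by name, as the rows of the expression table whose gene symbol stood on a fixed list. All 32 were among the 23955 symbols of the table, and all 32 passed the filter on low values, a mean of at least 1 TPM over the libraries, which left 11931 genes to test. TPM is a transcript abundance divided by transcript length and scaled so that every library has the same total. The libraries came from haematopoietic stem cells (HSCs) sorted from mouse bone marrow as CD150+ CD48- cells among lineage-negative Sca-1+ c-Kit+ cells, 20000 cells a library. The db/db mice carried the db mutation of the leptin receptor on both copies of the gene and become obese. The WT group was made of littermates, and all mice were C57BL/6 and 4 months old. Each of 3 experiments gave 1 db/db and 1 WT library, so n = 3 in each group. The db mutation is carried by every cell of the mouse. The labels do not say how many mice were pooled for a library, so the p-values refer to libraries. In limma the variance of each gene is also drawn toward that of genes of similar level. Its SE, interval and p are therefore not the spread of that gene alone.

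In mitosis, Cdk1 bound to cyclin A or cyclin B drives a cell into division, the Aurora and Polo-like kinases build the spindle, and a checkpoint of Bub and Mad proteins holds the cell back until every chromosome is attached. The anaphase-promoting complex then marks cyclin B and securin for destruction, and the cell splits. Transcripts of many of these genes, though not of every one, are made mainly in late S, G2 and M phase. The level of such transcripts in a population of cells is commonly read as a measure of how many cells are dividing. Most adult HSCs are quiescent. In bulk RNA, fewer cells in division and less RNA per dividing cell cannot be told apart.

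Promoters of such genes are known for CCAAT boxes, which bind the factor NF-Y, and for the cell cycle homology region, which binds the DREAM repressor complex in quiescent cells and the activating complex of B-Myb and MuvB in dividing cells. RefSeq promoters on GRCm38.p6, a later build than the mm9 of the expression table, were found for 27 of the 32 genes, from 250 bases before the gene start to 50 after it. A CCAAT box was searched as CCAAT or ATTGG, and the homology region as TTTGAA or TTCAAA or TTTAAA, which covers both strands. Of the 27 genes, 23 (85.2%) held a CCAAT box, against 41.1% of all 27025 genes with a promoter and 43.0% of the 8997 tested genes with one. At least 2 CCAAT boxes stood in 17 promoters (63.0%, against 13.3% of all promoters), matches on opposite strands that overlap being counted apart. The homology region was in 23 (85.2%, against 30.6%), and both motifs were in 22 (81.5%, against 12.2%). Matches of the different motifs overlapped in Cdca8 only. These shares describe letters in a window, were not corrected for base composition, and show no binding.

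The spacing of the motifs was also described. In 16 of the 27 genes (59.3%), 19 to 31 bases lay between a CCAAT box and a homology region downstream of it, against 1.17% of all promoters and 1.02% of those of tested genes. In 8 genes (29.6%), the first bases of a pair of CCAAT boxes were 31 to 34 bases apart, against 1.37% of all promoters and 2.46% of those of tested genes. Both ranges were set after the matches were seen, so these shares are a description and no test. A promoter without both motifs cannot hold such a gap. Both were in 12.2% of all promoters and 9.13% of those of tested genes, against 81.5% of the 27, so the contrast is partly one of presence. The 250 bases before the gene start are shown for 4 genes in which a CCAAT box stands 19 to 31 bases before a homology region. They are also shown for Mybl2 and Mad2l1, where neither motif was found. These 2 had the smallest unadjusted p of the set in the comparison of expression, and neither was called. Capitals mark CCAAT boxes and homology regions.
Ube2c (chr2:164769679-164769928, + strand): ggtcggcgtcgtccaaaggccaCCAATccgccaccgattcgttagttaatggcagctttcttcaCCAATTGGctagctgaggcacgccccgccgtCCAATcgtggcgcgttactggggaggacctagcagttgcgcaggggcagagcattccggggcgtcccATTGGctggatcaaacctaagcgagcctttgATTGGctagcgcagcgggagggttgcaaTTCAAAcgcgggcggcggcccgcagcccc
Cdk1 (chr10:69352913-69353162, - strand): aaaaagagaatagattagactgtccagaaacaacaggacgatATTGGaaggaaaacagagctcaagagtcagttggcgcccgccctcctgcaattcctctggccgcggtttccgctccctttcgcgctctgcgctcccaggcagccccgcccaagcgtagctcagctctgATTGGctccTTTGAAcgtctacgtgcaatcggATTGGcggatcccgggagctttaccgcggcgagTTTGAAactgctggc
Ccnb1 (chr13:100786487-100786736, - strand): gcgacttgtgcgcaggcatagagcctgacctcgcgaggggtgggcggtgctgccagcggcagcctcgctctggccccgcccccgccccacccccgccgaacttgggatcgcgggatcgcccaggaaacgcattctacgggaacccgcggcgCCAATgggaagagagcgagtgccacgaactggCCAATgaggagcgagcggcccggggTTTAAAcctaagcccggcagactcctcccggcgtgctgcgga
Top2a (chr11:99024190-99024439, - strand): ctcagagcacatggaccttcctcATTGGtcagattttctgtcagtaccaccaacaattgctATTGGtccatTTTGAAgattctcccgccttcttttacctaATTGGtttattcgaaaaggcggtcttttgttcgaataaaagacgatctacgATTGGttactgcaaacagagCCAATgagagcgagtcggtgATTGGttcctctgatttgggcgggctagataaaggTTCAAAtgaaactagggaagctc
Mybl2 (chr2:163054385-163054634, + strand): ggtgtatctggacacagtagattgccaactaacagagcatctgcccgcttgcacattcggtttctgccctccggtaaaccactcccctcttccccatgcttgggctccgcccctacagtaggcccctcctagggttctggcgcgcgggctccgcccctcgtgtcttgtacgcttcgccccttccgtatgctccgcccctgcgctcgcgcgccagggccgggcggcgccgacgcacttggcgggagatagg
Mad2l1 (chr6:66534971-66535220, + strand): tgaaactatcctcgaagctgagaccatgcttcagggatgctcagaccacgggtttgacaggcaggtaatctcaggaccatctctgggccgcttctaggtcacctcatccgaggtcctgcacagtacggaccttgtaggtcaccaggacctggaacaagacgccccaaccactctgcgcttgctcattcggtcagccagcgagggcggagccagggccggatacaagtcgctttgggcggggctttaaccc
In Ccnb1, which encodes cyclin B1, CCAAT boxes began 99 and 67 bases before the gene start and the homology region 42 bases before it. Ube2c had 6 CCAAT matches and 1 homology region, and Top2a had 6 and 2. Mybl2, Mad2l1 and Nusap1 had no match of either kind in the whole window, Bub1 lacked the homology region and Birc5 lacked the CCAAT box.

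**Figure D1:**
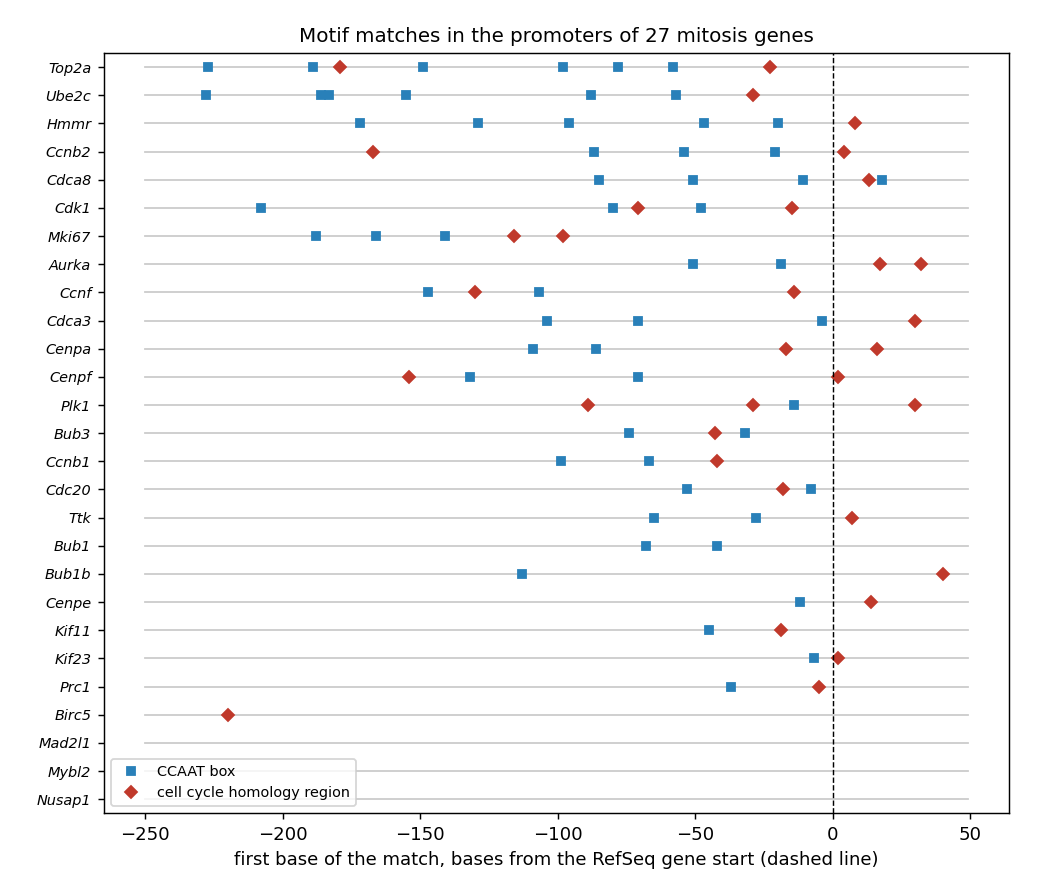
Positions of motif matches in the promoters of the 27 genes with a RefSeq promoter, as bases from the gene start (dashed line), with CCAAT boxes as squares and cell cycle homology regions as diamonds. In 22 of the 27 promoters both kinds of match are present.

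Genes of the gate were present. Kit (164 to 350 TPM), the Sca-1 gene Ly6a (308 to 463 TPM) and the CD150 gene Slamf1 were listed above 0 in all 6. The groups overlapped for Kit and Ly6a but not for Slamf1. Slamf1 was 24.96 to 38.9 TPM in db/db and 11.91 to 23.99 TPM in WT libraries (limma unadjusted p = 0.0406, adjusted p = 0.919). Every db/db library was above every WT library for 7.85% of all tested genes. Of 17 lymphoid genes, 7 were listed at 0 in all 6, among them Pax5, Ebf1, Cd3e and Cd3g. Of the other 10 lymphoid genes 4 reached the filter. Cd79b was 28.8 to 59.9 TPM in db/db and 32.7 to 60.9 TPM in WT libraries, Lck 4.69 to 9.76 and 4.80 to 9.24 TPM, Cd4 7.47 to 14.02 and 2.31 to 7.55 TPM, and Thy1, which HSCs also carry, 32.0 to 54.3 and 7.86 to 17.4 TPM (adjusted p = 0.334 in limma for Thy1). The CD48 gene Cd48 was listed at 1.63 to 21.4 TPM in db/db and 1.09 to 5.35 TPM in WT libraries. Read depth cannot be had from TPM and is unknown. Across genes, Pearson correlations of log2 values between pairs of libraries were 0.91 to 0.94, and no pair shared the same value for more than 0.654% of tested genes. Median-of-ratios size factors were 0.904 to 1.21 in db/db libraries and 0.805 to 1.12 in WT libraries. Over all tested genes the median log2 fold change, db/db minus WT, was 0.18 as deposited and 0.00 once the libraries were scaled by median of ratios, so each value given here is to be read against 0.18.

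Mitosis transcripts made up 0.1% to 0.159% of the TPM in the db/db libraries and 0.117% to 0.129% in the WT libraries. Their levels covered more than 2 orders of magnitude. Ube2c, the ubiquitin-conjugating enzyme of the anaphase-promoting complex, was the most abundant at 247 TPM over all 6 libraries, above 96.5% of tested genes. Bub3 (129 TPM), Birc5 (83.3 TPM), Ccna2 (67.3 TPM) and Mad2l1 (63.4 TPM) followed. At the low end stood Bub1 at 5.67 TPM and the large kinetochore proteins Cenpe and Cenpf at 1.72 and 1.68 TPM, above 5.85% and 5.66% of tested genes. Cenpe and Cenpf sat just above the filter, and their 95% intervals were the widest of the set.

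**Figure D2:**
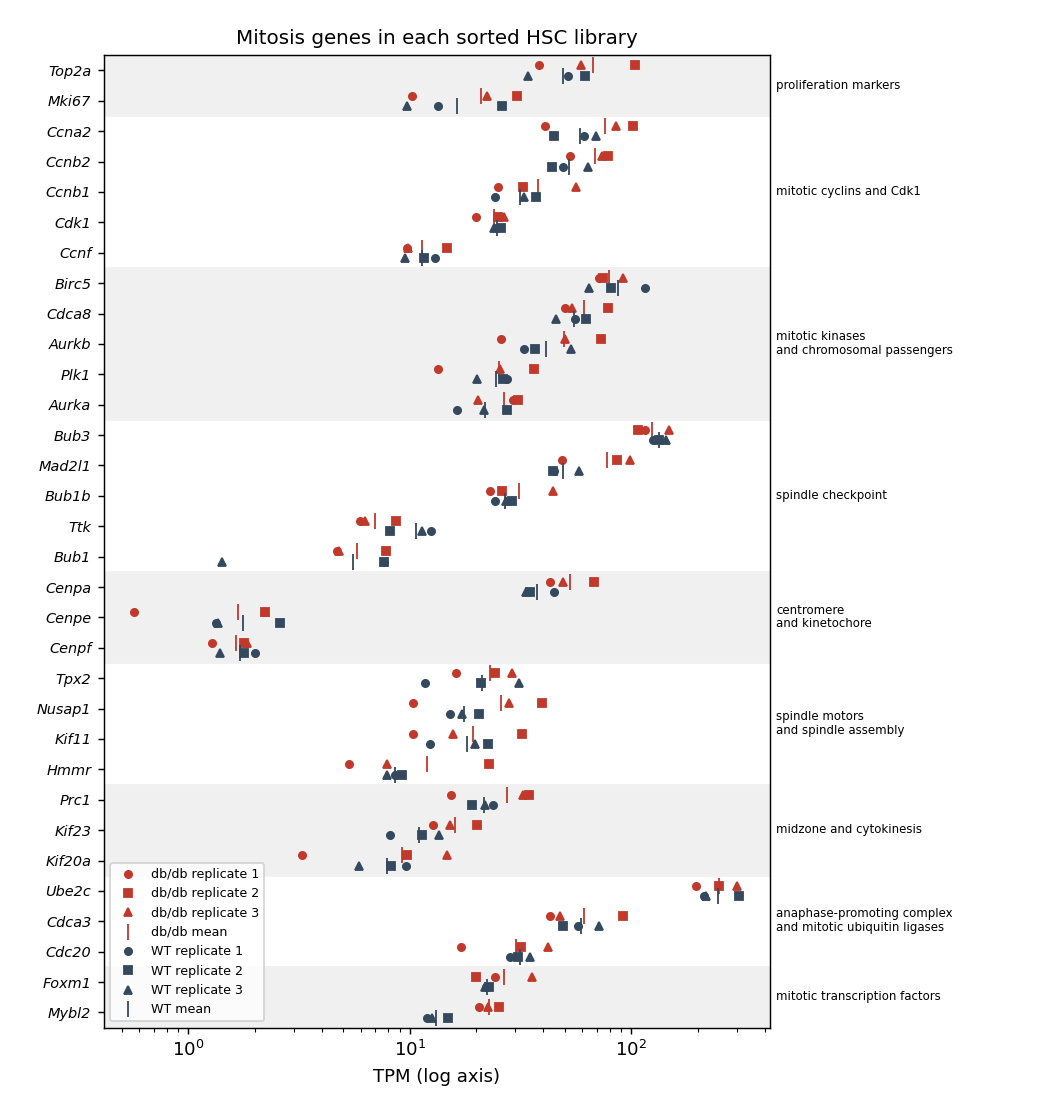
TPM of each mitosis gene in each library on a log axis, grouped by role, with db/db in red above WT in dark blue, and a vertical tick at each group mean. Mybl2 is the gene whose db/db and WT libraries do not overlap.

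The comparison of db/db with WT addressed the expression of these genes in HSCs of obese mice. No mitosis gene passed in limma with Benjamini-Hochberg adjustment over all tested genes, where 0.0335% of genes passed as higher and 0.0% as lower. The adjusted p of the 32 genes ran from 0.919 to 0.998. At an unadjusted p under 0.05, 1 gene was higher (Mybl2) and 0 were lower, against 4.1% and 1.25% of all tested genes. That count rested on the setting. It was 2 with the experiment as a replicate block (Mad2l1 and Mybl2), 4 without db/db replicate 1 (Ccna2, Mad2l1, Nusap1 and Mybl2), 1 without WT replicate 3 (Mad2l1), 1 after quantile normalization (Ttk), and 0 after median-of-ratios scaling or without any other single library. Fold changes were above 0 for 21 genes and below 0 for 11, where 68.1% of all tested genes were above 0. The median log2 fold change of the 32 genes was 0.18, the same as that of all tested genes, and 15 of the 32 lay above the median of all genes. After median-of-ratios scaling, 15 fold changes were above 0 and 17 below, with a median of -0.01. The summed level of the 32 genes was 1004, 1591 and 1523 TPM in db/db replicates 1, 2 and 3 and 1172, 1285 and 1202 TPM in WT replicates 1, 2 and 3. The db/db libraries thus lay on both sides of the WT libraries on TPM as deposited. The ratio of the means, db/db over WT, was 1.13, or 0.956 after median-of-ratios scaling. With that scaling the sums were 1111, 1424 and 1255 in db/db and 1298, 1597 and 1070 in WT libraries, so db/db lay within the WT range. The p-values do not show that the genes were equal. The half-width of the 95% interval of the log2 fold change had a median of 0.74 over the 32 genes, and 0.84 over all tested genes.

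**Figure D3:**
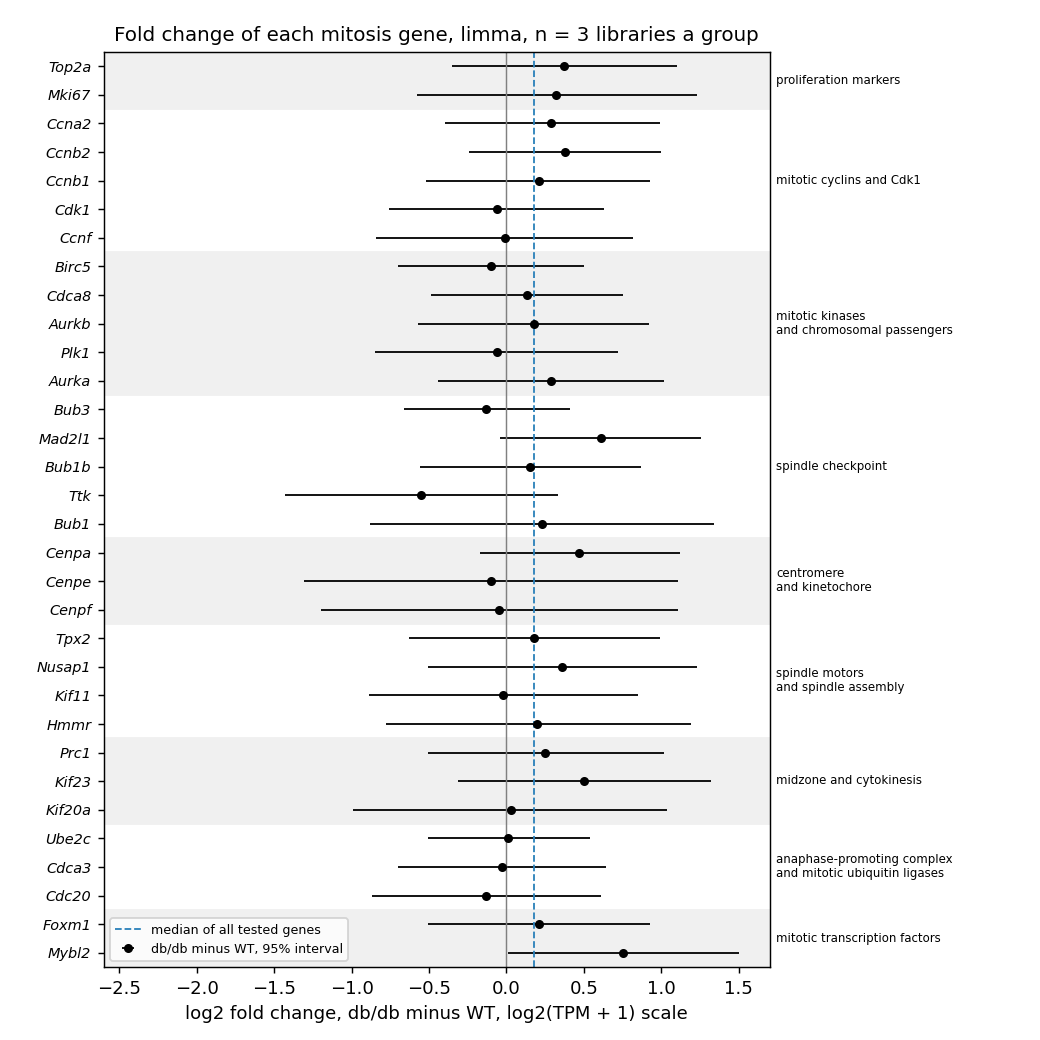
Log2 fold change of each mitosis gene, db/db minus WT on the log2(TPM + 1) scale, with limma 95% intervals from 3 libraries a group. The dashed line is the median of all tested genes, 0.18, and the interval of Mybl2 (0.01 to 1.5) is the only one that leaves out 0.

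Of the 32 genes, Mybl2 had the smallest p. It encodes B-Myb, which joins the MuvB core to switch on genes of G2 and M phase. It was listed at 20.5, 25.3 and 22.5 TPM in db/db replicates 1, 2 and 3, against 12.0, 14.8 and 12.5 TPM in WT replicates 1, 2 and 3. Every db/db library was above every WT library, as for 7.85% of all tested genes, and no other of the 32 genes had groups without overlap. The reverse order, every db/db library below every WT library, held for 0 of the 32 and for 2.32% of all tested genes. The means were 22.8 ± 2.41 TPM in db/db and 13.1 ± 1.51 TPM in WT (SD, n = 3 each), a ratio of 1.74. The log2 fold change was 0.75 (SE 0.36, limma unadjusted p = 0.0479, Benjamini-Hochberg adjusted p = 0.919), with differences of 0.73, 0.73 and 0.79 in experiments 1, 2 and 3. Permuting the libraries exactly, two-sided, gave p = 0.1, the smallest that 3 against 3 can give. With median-of-ratios scaling Mybl2 had a log2 fold change of 0.57 (limma unadjusted p = 0.0761, adjusted p = 0.903). Foxm1 encodes a forkhead activator that works with B-Myb on the same class of promoters. It was 24.4, 20.0 and 35.8 TPM in db/db libraries and 22.2, 22.7 and 21.9 TPM in WT libraries, so the groups overlapped and db/db replicate 2 was the lowest of the 6. Its log2 fold change was 0.21 (SE 0.35, adjusted p = 0.933 in limma).

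Of the 5 spindle checkpoint genes, Mad2l1 and Ttk stood farthest from 0, in opposite directions. Mad2l1 encodes Mad2, which binds Cdc20 and blocks anaphase. It was 48.7, 86.4 and 98.5 TPM in db/db libraries, against 44.9, 44.1 and 57.9 TPM in WT libraries. The db/db library was the higher in each experiment, as for 22.7% of all tested genes, but db/db replicate 1 lay below WT replicate 3. The log2 fold change was 0.61 (SE 0.31, limma unadjusted p = 0.0652, adjusted p = 0.919), or 0.42 after median-of-ratios scaling. Ttk encodes Mps1, the kinase that starts the checkpoint signal. It was 5.96, 8.67 and 6.25 TPM in db/db libraries and 12.5, 8.17 and 11.3 TPM in WT libraries, with a log2 fold change of -0.55 (SE 0.42, adjusted p = 0.920). Its groups overlapped in experiment 2, where db/db was the higher by 0.08. Bub3, a WD-repeat protein that brings Bub1 and BubR1 to kinetochores, was 116, 108 and 149 TPM in db/db and 125, 134 and 143 TPM in WT libraries. The kinase genes Bub1 and Bub1b had means of 5.78 ± 1.78 and 31.1 ± 11.5 TPM in db/db, against 5.55 ± 3.58 and 26.9 ± 2.43 TPM in WT (SD, n = 3 each).

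Among cyclins and Cdk1, Ccnb2, the gene of cyclin B2, was 52.97, 78.59 and 73.98 TPM in db/db libraries and 49.03, 43.77 and 64.00 TPM in WT libraries. In each experiment the db/db library was the higher, yet db/db replicate 1 was below WT replicate 3, and its log2 fold change of 0.38 (SE 0.30) had an adjusted p of 0.920 in limma. Ccna2, the gene of cyclin A2, was 40.6, 102 and 85.5 TPM in db/db libraries against 61.1, 44.8 and 69.7 TPM in WT libraries. Db/db replicate 1 was thus the lowest and db/db replicate 2 the highest of the 6, and the log2 fold change was 0.29 (SE 0.33, adjusted p = 0.925). Cdk1, their kinase partner, was 23.9 ± 3.57 TPM in db/db and 24.8 ± 0.95 TPM in WT (SD, n = 3 each). Ccnb1 was 37.9 ± 16.3 and 31.4 ± 6.62 TPM, and Ccnf, the F-box cyclin of a ubiquitin ligase, was 11.4 ± 2.82 and 11.4 ± 1.74 TPM, in db/db and WT.

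Both proliferation markers varied widely within a group. Top2a, the topoisomerase that untangles sister chromatids, was 38.5, 104 and 59.5 TPM in db/db libraries, against 51.88, 61.56 and 34.04 TPM in WT libraries. Mki67, the gene of the Ki-67 protein that coats mitotic chromosomes, was 10.2, 30.4 and 22.3 TPM in db/db libraries and 13.5, 26.1 and 9.75 TPM in WT libraries. In both genes db/db was lower in experiment 1 and higher in experiments 2 and 3, and the groups overlapped. Log2 fold changes were 0.37 (SE 0.35) and 0.32 (SE 0.44), with adjusted p of 0.920 and 0.929 in limma.

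For the mitotic kinases and the chromosomal passenger complex, which corrects faulty attachments, no gene had an unadjusted p under 0.05 in limma. Aurka, the centrosomal Aurora kinase, was 29.1, 30.7 and 20.4 TPM in db/db libraries and 16.4, 27.5 and 21.7 TPM in WT libraries. Aurkb, the kinase of the passenger complex, was 25.9, 72.8 and 50.1 TPM in db/db libraries and 32.9, 36.9 and 53.7 TPM in WT libraries. Its partner Birc5, or survivin, was 71.5, 74.5 and 92.3 TPM in db/db libraries and 116, 81.4 and 64.4 TPM in WT libraries. All 3 overlapped between the groups, and their log2 fold changes were 0.29, 0.18 and -0.10, none with an adjusted p below 0.926 in limma. Cdca8, which encodes the passenger borealin, was 61.0 ± 15.5 TPM in db/db and 54.9 ± 8.48 TPM in WT, and Plk1, the Polo-like kinase of mitotic entry, was 25.2 ± 11.5 and 24.6 ± 3.9 TPM (SD, n = 3 each). The sign of Aurkb turned after median-of-ratios scaling, where its log2 fold change was -0.01.

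No kinetochore, spindle or cleavage gene had an unadjusted p under 0.05 in limma. Cenpa, the histone H3 variant that marks centromeres, was 42.88, 67.80 and 48.98 TPM in db/db libraries and 44.6, 35.0 and 33.4 TPM in WT libraries, so only WT replicate 1 reached into the db/db range. Its log2 fold change was 0.47 (SE 0.31, adjusted p = 0.919 in limma). Cenpe, a kinetochore motor, was 0.57, 2.21 and 2.23 TPM in db/db and 1.34, 2.6 and 1.36 TPM in WT libraries, and Cenpf was 1.64 ± 0.313 and 1.72 ± 0.309 TPM. Nusap1, a protein that bundles spindle microtubules, was 10.4, 39.4 and 28.0 TPM in db/db libraries, against 15.2, 20.5 and 17.2 TPM in WT libraries, again with db/db replicate 1 lowest and db/db replicate 2 highest. Tpx2, the activator of Aurora A, was 16.1, 24.1 and 29.1 TPM in db/db and 11.77, 20.87 and 30.99 TPM in WT libraries. Hmmr, a spindle protein, and Kif11, the motor that pushes the poles apart, had means of 12.0 ± 9.44 and 19.4 ± 11.4 TPM in db/db, against 8.59 ± 0.641 and 18.2 ± 5.27 TPM in WT (SD, n = 3 each).

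Kif23, a motor of the central spindle, was 12.8, 20.2 and 15.1 TPM in db/db libraries and 8.18, 11.4 and 13.5 TPM in WT libraries. Again db/db exceeded WT in each experiment, and db/db replicate 1 lay below WT replicate 3. The log2 fold change was 0.50 (SE 0.39, adjusted p = 0.920 in limma). Prc1, which crosslinks midzone microtubules, was 15.3, 34.7 and 32.4 TPM in db/db and 23.84, 19.19 and 21.95 TPM in WT libraries, and Kif20a was 9.22 ± 5.73 and 7.91 ± 1.89 TPM. Genes that act with the anaphase-promoting complex had log2 fold changes between -0.13 and 0.01. Ube2c was 195, 250 and 300.3 TPM in db/db libraries and 214, 308 and 217 TPM in WT libraries, a log2 fold change of 0.01 (SE 0.25, 95% interval -0.51 to 0.54, adjusted p = 0.996). Cdc20, the activator of the complex that the checkpoint blocks, was 16.96, 31.88 and 42.11 TPM in db/db libraries and 28.4, 30.9 and 34.8 TPM in WT libraries, with a log2 fold change of -0.13 (SE 0.36, adjusted p = 0.966). Cdca3, a trigger of mitotic entry, was 43.2, 92.2 and 47.6 TPM in db/db and 57.3, 49.2 and 71.7 TPM in WT libraries.

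The experiments did not point the same way. In experiment 1, 24 of the 32 genes were lower in db/db and 8 higher, where 49.9% of all tested genes were higher. In experiment 2, 24 were higher and 8 lower, where 72.0% of all tested genes were higher. In experiment 3, 25 were higher and 7 lower, where 57.3% of all tested genes were higher. The median difference of the 32 genes was -0.35, 0.27 and 0.31 in experiments 1, 2 and 3. Relative to all tested genes it was -0.35, -0.18 and 0.22. Only 4 genes were higher in db/db in all 3 experiments (Mybl2, Mad2l1, Ccnb2 and Kif23), where 22.7% of tested genes were, and 0 were lower in all 3, where 7.55% were. Db/db replicate 1 had the lowest value of all 6 libraries for 16 of the 32 genes, and db/db replicate 2 the highest for 18. Without db/db replicate 1 the median log2 fold change of the set was 0.34, against 0.31 for all genes, and without db/db replicate 2 it was -0.01, against 0.15. No gene of the set passed in limma in either case.

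**Figure D4:**
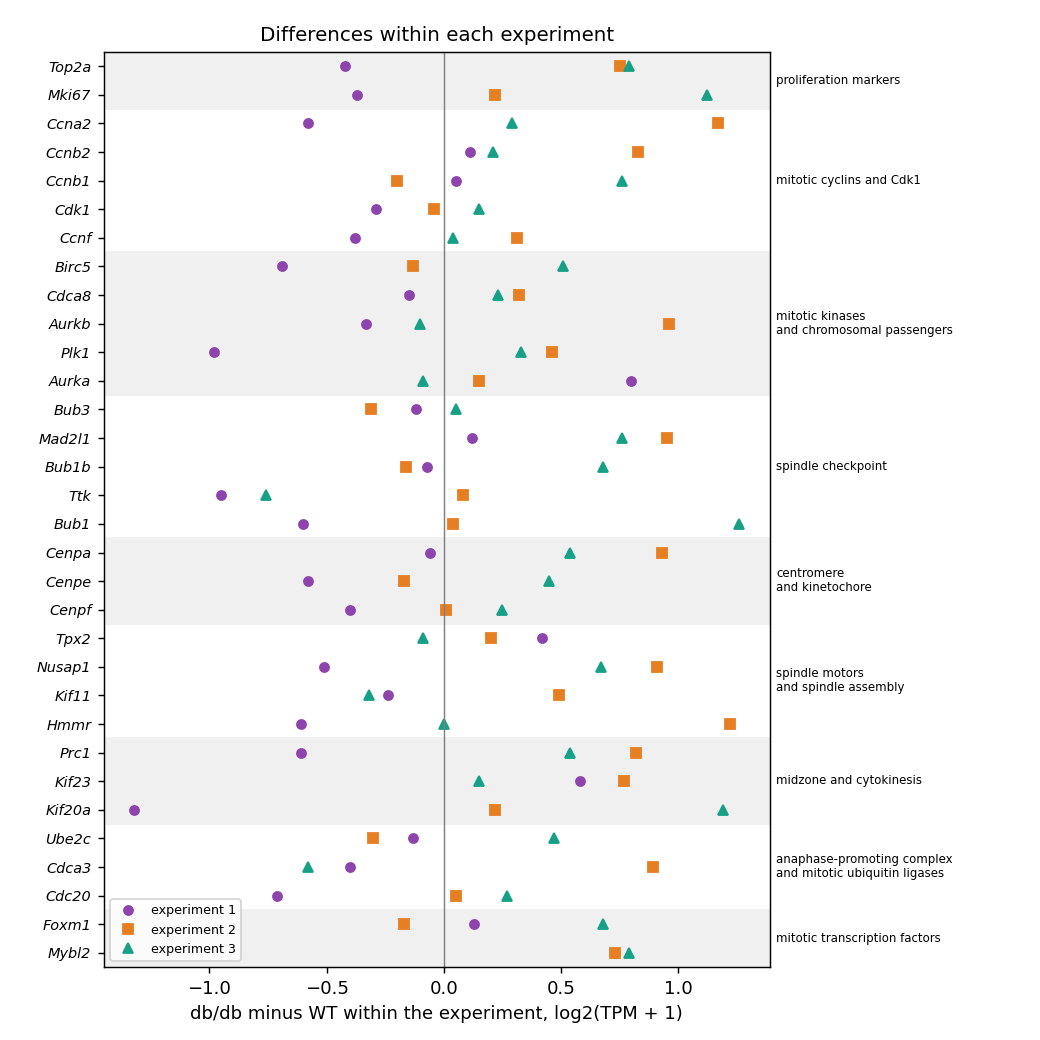
Difference between the db/db and the WT library of the same experiment for each mitosis gene, on the log2(TPM + 1) scale. Circles, experiment 1, lie left of 0 for 24 of 32 genes, while squares and triangles, experiments 2 and 3, lie right of 0 for 24 and 25.

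Genes listed for progenitors outside the HSC gate, many of which divide, also differed between libraries. The list is not exclusive to such cells, as Cd48, Flt3 and Cd34 also stand on the list of gate and stem cell genes. Of the 15 genes, 14 had a log2 fold change above 0, where 68.1% of all tested genes did, with a median of 0.46. At an unadjusted p under 0.05, 3 were higher, against 4.1% of tested genes, and 0 passed adjustment in limma. Cd53, a tetraspanin of blood cells, was 38.1, 74.8 and 48.9 TPM in db/db and 23.7, 6.16 and 18.7 TPM in WT libraries (adjusted p = 0.240). Nkg7 was 187, 200.1 and 125 TPM in db/db and 69.8, 115 and 50.7 TPM in WT libraries (adjusted p = 0.351). Flt3, a cytokine receptor of multipotent progenitors, was 18.4, 29.6 and 21.3 TPM in db/db and 8.62, 6.18 and 12.7 TPM in WT libraries (adjusted p = 0.588). These 3 genes were named for the smallest p of the list. Their groups did not overlap, with db/db the higher, as for 7.85% of all tested genes. Cd27, the most abundant of the list, was 165 to 326 TPM in db/db and 88.5 to 337 TPM in WT libraries. The summed level of the 15 was 1024 to 1538 TPM in db/db and 775 to 928 TPM in WT libraries, and db/db replicate 2 was the highest. In that library Mpo, a granule enzyme gene of myeloid progenitors, was 347 TPM and Cd48 was 21.4 TPM, against 21.9 to 149 TPM and 1.09 to 9.10 TPM in the others, both named after their values were seen.

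Of 13 granule genes of neutrophils, 12 had a fold change above 0, where 68.1% of all tested genes did. Of the 11 tested, 9 were higher at an unadjusted p under 0.05, against 4.1% of all tested genes, and 0 passed adjustment in limma. Every db/db library was above every WT library for 0 of the 13, against 7.85% of all tested genes. In experiment 1 the list was split, with 5 higher and 7 lower and a median of -0.04, and in experiments 2 and 3 the medians were 3.03 and 2.49. Its summed level was 4119, 2067 and 1915 TPM in db/db and 4839, 688 and 755 TPM in WT libraries, so both libraries of experiment 1 were high. Of the 17 erythroid genes in the table, the beta-globin symbols Hbb-b2 and Hbb-bt passed as higher, but their values were identical in every library, so they are 1 measurement. They were listed at 1348, 513 and 256 TPM in db/db and 89.3, 79.0 and 55.1 TPM in WT libraries. With that pair counted once, the erythroid genes summed to 2059, 1649 and 1002 TPM in db/db and 659, 691 and 873 TPM in WT libraries. The part of any of these genes in the mitosis values was not tested.

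Other genes of the cell cycle, listed by name, were also compared. None of 89 further mitotic genes passed in limma with adjustment over all genes, and at an unadjusted p under 0.05, 4 were higher and 0 lower, or 4.49% and 0.0%, beside 4.1% and 1.25% of all tested genes. Their median log2 fold change was 0.20, beside 0.18 for all genes. The 4 were Pkmyt1, an inhibitory kinase of Cdk1, at 45.5, 48.1 and 35.5 TPM in db/db and 16.8, 17.7 and 31.3 TPM in WT libraries (adjusted p = 0.754), and Cenpk, Knstrn and Ska3, genes of the kinetochore and spindle. Cenpk was 6.02 ± 3.42 and 1.34 ± 0.48 TPM, and Knstrn was 29.3 ± 1.88 and 15.6 ± 1.36 TPM, in db/db and WT (SD, n = 3 each, adjusted p = 0.769 and 0.857 in limma). Ska3, named because it completes that count, was 22.01, 19.22 and 20.23 TPM in db/db and 11.5, 9.6 and 13.4 TPM in WT libraries. Groups did not overlap for 11 of the 89, all higher in db/db, against 7.85% of tested genes. The most abundant, Tuba1b, an alpha-tubulin, was 2660.0 ± 192 and 2430.0 ± 311 TPM.

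Of 50 genes of S phase and replication, 0 passed in limma and 2 were higher at an unadjusted p under 0.05, where 4.1% of all tested genes were. A fold change above 0 was found for 42, where 68.1% of all tested genes had one, with a median of 0.30, or 0.12 relative to all genes. Their summed level was 2772, 3360 and 3646 TPM in db/db and 2271, 2727 and 2972 TPM in WT libraries, so the ratio, db/db over WT, was 1.22, 1.23 and 1.23 in experiments 1, 2 and 3. For the mitosis genes the same ratios were 0.857, 1.24 and 1.27. Both sets of ratios are on TPM as deposited, where the median of all tested genes also moved between experiments. Relative to all tested genes, the median difference of the S phase genes was 0.21, -0.05 and 0.19 in experiments 1, 2 and 3. That of the mitosis genes was -0.35, -0.18 and 0.22. In experiment 1 the S phase genes were split, 28 higher and 22 lower with a median of 0.21, beside 8 higher and 24 lower with a median of -0.35 for the mitosis genes, a difference that was not tested. Pcna, the sliding clamp of replication, was 571, 643 and 822 TPM in db/db and 420, 483 and 609 TPM in WT libraries (log2 fold change 0.43, adjusted p = 0.919 in limma). E2f8, a repressor of E2F targets, was 17.4 ± 7.63 and 8.21 ± 3.3 TPM, Pole, a replicative polymerase, was 30.8 ± 9.07 and 17.5 ± 5.84 TPM, and Gmnn, the geminin gene, was 56.9 ± 13.5 and 37.2 ± 19.2 TPM, in db/db and WT (SD, n = 3 each).

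The DREAM and MuvB complexes are known for binding at cell cycle homology regions. The list for them also holds Rb1, the retinoblastoma gene, which is not a subunit of either. All 12 listed genes had a fold change above 0, where 68.1% of all tested genes did. The median was 0.42, or 0.24 relative to all genes, and 0 passed in limma. At an unadjusted p under 0.05, 1 was higher and 0 lower, or 8.33% and 0.0%, beside 4.1% and 1.25% of all tested genes. Tfdp1, the dimer partner of E2F factors, was 106, 108 and 141 TPM in db/db, against 66.5, 74.4 and 93.9 TPM in WT libraries (log2 fold change 0.59, adjusted p = 0.919). Rbl1, the pocket protein p107, was 24.9 ± 3.38 and 16.6 ± 4.35 TPM, and Lin52, a MuvB subunit, was 7.19 ± 3.06 and 3.95 ± 0.278 TPM, in db/db and WT (SD, n = 3 each).

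Subunits of the anaphase-promoting complex that are made throughout the cycle, and its activator Fzr1, served as genes of the same machine without mitotic expression. Of 15, 0 passed and 0 had an unadjusted p under 0.05, with a median log2 fold change of 0.17. A fold change above 0 was found for 14 of the 15, where 68.1% of all tested genes had one. The same count was 17 of 18 for gate and stem cell genes, 64 of 89 for further mitotic genes and 5 of 7 for G1 genes. Anapc13, the most abundant, was 371 ± 76.6 and 333 ± 88.9 TPM in db/db and WT. The 3 of smallest p were Cdc16, Anapc16 and Cdc27, with log2 fold changes of 0.47, 0.42 and 0.34. Both motifs were in the promoter of 0 of 14 of these genes, and of 32 of 68 further mitotic genes (47.1%).

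Of 7 G1 cyclin and kinase genes and of 6 tested kinase inhibitors, 0 passed in limma and 0 had an unadjusted p under 0.05. Cdk4 was 572 ± 42.3 and 447 ± 45.3 TPM, Cdk6 was 65.4 ± 27.9 and 46.4 ± 15.9 TPM, and Ccnd3, the gene of cyclin D3, was 127 ± 16.6 and 161 ± 30.3 TPM in db/db and WT (SD, n = 3 each). Among the inhibitors, Cdkn1a was 69.7, 43.7 and 16.2 TPM in db/db and 38.1, 15.0 and 13.9 TPM in WT libraries (log2 fold change 0.85, adjusted p = 0.919). Cdkn1c, the p57 gene that keeps HSCs quiescent, was 27.5 ± 20.3 and 14.9 ± 7.63 TPM, Cdkn1b was 15.9 ± 5.35 and 11.4 ± 2.96 TPM, and Cdkn2d was 126 ± 40.4 and 134 ± 39.6 TPM, in db/db and WT.

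**Figure D5:**
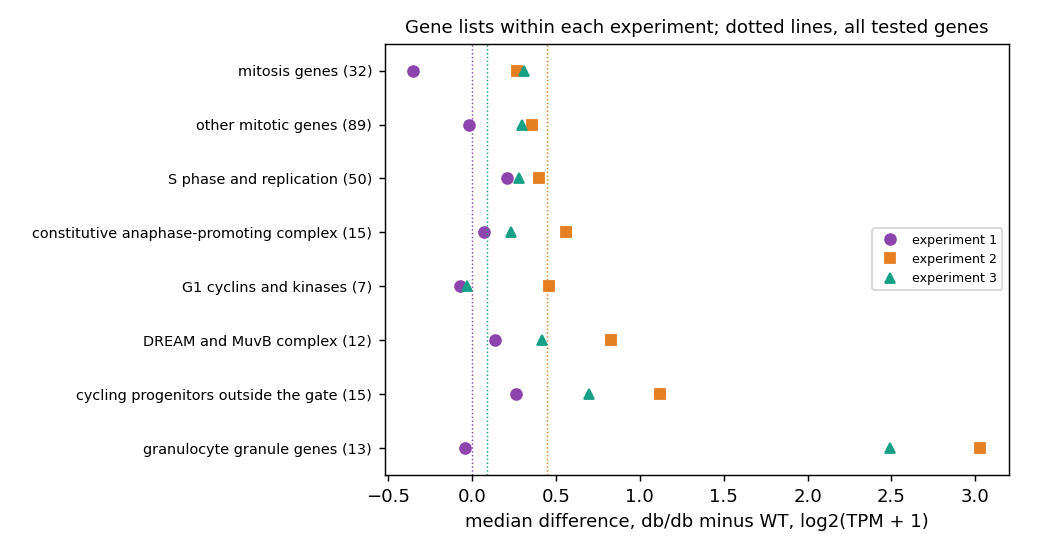
Median difference between db/db and WT within each experiment for 8 gene lists (number of genes in brackets), on the log2(TPM + 1) scale, with dotted lines at the median of all tested genes in that experiment. The mitosis genes lie at -0.35 in experiment 1 and at 0.27 and 0.31 in experiments 2 and 3.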

How the data were processed

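Each of 6 libraries, 3 db/db and 3 WT, was made from amplified total RNA and read as pairs of 75 nucleotides, per the labels' protocols. The TPM values per gene symbol were made by the authors with RSEM and Bowtie2 on mm9, per the submitters' processing notes. The software versions and gene annotation are not given in the sources used here. RSEM divides reads shared by similar genes by an estimate. Depth is unknown, so the errors given come from variation between libraries. An SD is that of the gene itself, while SEs, intervals and p-values of limma use the moderated variance.

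A limma model (3.58.1, R 4.3.3) with genotype alone was fitted to log2(TPM + 1) for the 11931 tested genes, with a trended prior (17.7 prior and 4 residual degrees of freedom), two-sided tests and calls at a Benjamini-Hochberg adjusted p under 0.05. The pseudocount understates changes of low genes. The script was tested on simulated data. Other settings tried were pseudocounts (0.1 and 0.5), the filter (none, or 5 TPM), scaling (median of ratios, quantile), no trend, a block for experiment, leaving out a library, and a threshold of 0.1.

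Experiment numbers in the labels pair the libraries. Correlations of deviations from group means were 0.04, 0.01 and 0.16 within experiments and -0.12 to 0.08 across them. The members and lists were chosen with earlier results of these data known. Named with full values were called members and, per role, the member of highest mean and the 2 of smallest p. From other cell cycle lists and the progenitor list up to 3 of smallest p and the most abundant were named, and other marker genes serve to describe the gate. Promoters came from RefSeq on GRCm38.p6, and transcript lengths from GENCODE.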

Additional observations from a re-analysis of the deposited data

How the results depend on the processing

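No mitosis gene and no further mitotic gene passed under any of the 14 refits, nor any mitosis gene at an adjusted p under 0.1, and the smallest adjusted p of a mitosis gene ran from 0.419 without db/db replicate 1 to 1.0 without WT replicate 1 or 2. With the experiment as a replicate block the count over all genes was 6 against 4 (2 of the 4 are the identical beta-globin rows), no mitosis gene passed, Mad2l1 and Mybl2 had adjusted p of 0.674 and 0.677, and the mean ratio of the summed level within experiments was 1.12. The count over all genes was 0 without a filter, 0 without a trend, 1 after median-of-ratios scaling, 1 after quantile normalization, 7 at an adjusted p under 0.1, and 4 to 18 when 1 library was left out. Leaving out 1 library moved the median log2 fold change of the set between -0.01 and 0.34, its value relative to all genes between -0.18 and 0.12, and the ratio of the sums between 1.04 and 1.28. After median-of-ratios scaling 6 of the 32 genes turned from above to below 0, among them Cdca8 (-0.06), Bub1b (-0.04) and Kif20a (-0.16). Of the 21 genes whose values were given library by library, 3 changed sign under a setting other than a left-out library. These were Aurkb (-0.01) and Tpx2 (-0.01) after median-of-ratios scaling, Tpx2 after quantile normalization (0.00), and Ube2c under both (-0.18 and -0.07). With 1 library left out, 9 changed sign, over ranges of -0.15 to 0.57 for Aurkb, -0.30 to 0.12 for Birc5, -0.41 to 0.22 for Cdc20, -0.37 to 0.17 for Cdca3, -0.27 to 0.25 for Cenpe, -0.01 to 0.39 for Foxm1, -0.03 to 0.89 for Nusap1, -0.17 to 0.49 for Tpx2 and -0.13 to 0.18 for Ube2c. None of these genes was called, and the cause was not tested. Mybl2 stayed above 0 in all 14 refits, between 0.56 and 0.84.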

Other observations

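On TPM as deposited, mitosis transcripts differed more among db/db libraries than among WT libraries. The SD of the log2 values was the larger in db/db for 25 of the 32 genes (78.1%), against 53.0% of all tested genes. The summed level was 1373 ± 321 TPM in db/db and 1220.0 ± 58.9 TPM in WT (SD, n = 3 each). After median-of-ratios scaling the summed level was 1111, 1424 and 1255 in db/db and 1298, 1597 and 1070 in WT libraries. The db/db sums then lay within the WT range, and the SDs of single genes were not taken after scaling. Foxm1 had an SD of 8.16 TPM in db/db and 0.397 TPM in WT. Hmmr, Cdk1 and Bub1b had SDs of 9.44, 3.57 and 11.5 TPM in db/db and 0.641, 0.95 and 2.43 TPM in WT, and were named after their values were seen. The genes share their libraries, so they are not independent, and the difference in spread was not tested.

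Across the 32 genes, the mean TPM was lower for longer transcripts, with a Spearman correlation of -0.48 between mean TPM and the length of the longest annotated transcript. Over the 11371 tested genes with a length it was -0.21. Cenpf (11130 nucleotides), Mki67 (10061.0 nucleotides) and Cenpe (7910.0 nucleotides) were the longest, at 1.68, 18.7 and 1.72 TPM, and Cenpa (1466 nucleotides) was the shortest, at 45.4 TPM. Among the 27 genes with a promoter, the 22 with both motifs had a median log2 fold change of 0.07 and the 5 others one of 0.36, with ranges of -0.55 to 0.50 and -0.10 to 0.75. These are descriptions over genes measured in the same libraries.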
